A study of Mus musculus with 2 samples.

Results

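The inflammatory chemokine receptors described here are *Ccr1*, *Ccr2*, *Ccr4*, *Ccr8*, *Ccr10*, *Cxcr3*, *Cxcr4* and *Cxcr6*, receptors of the CC and CXC families that guide T cells into peripheral and inflamed tissue. They were chosen by gene symbol, with earlier results of these data known, and *Ccr7* was left out of the group because it serves lymph node homing. All 8 were listed in both libraries, among 14732 gene symbols listed in at least 1 library. The cells were CD8+ T cells from spleen and lymph nodes of 6 to 8 wk old C57BL/6 mice carrying the OT-I transgene, which gives them 1 T cell receptor, specific for OVA peptide. Both groups were stimulated for 24 hr with peptide (2.5 ng/mL) and IL-2 (10 U/mL), spun with RVKM retrovirus, sorted for human CD2 after another 48 hr and restimulated for 3 days with the same doses at 40000 cells per well. The vector carried an IRES-hCD2 cassette in both groups. It was otherwise empty in control OT-I cells and encoded Eomes in Eomes-overexpressing OT-I cells, so that Eomes came from a retrovirus and not from its own locus alone. Each group is 1 library, and no source used here states how many mice or wells went into it.

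Chemokine receptors are G-protein-coupled receptors on the cell surface. A chemokine bound to them activates Gi proteins, and the cell polarizes and moves up the gradient of the chemokine. Effector T cells exchange lymph node receptors for inflammatory ones, and the set they carry is known to help decide which tissue they enter. *Cxcr3* and *Cxcr6* are typical of type 1 effector cells, *Ccr4*, *Ccr8* and *Ccr10* are best known from skin-homing and type 2 or regulatory T cells, and *Ccr1* and *Ccr2* are known from monocytes as well as from activated T cells.

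Values are RPKM, reads normalized for both transcript length and sequencing depth. Levels can thus be compared between genes, and between libraries only as far as depth sets them apart. No further normalization between the libraries is stated. Log2 ratios are Eomes-overexpressing over control. A gene counted as expressed if its RPKM reached 1 in at least 1 library, and higher or lower when it differed by more than 1.5-fold, a log2 ratio beyond 0.58. With 1 library per group there was no test between the conditions and no p-value. The intervals given are 95% counting intervals on approximate reads. They compare the 2 libraries only and do not cover the spread between cultures.

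Of the 8 receptors, 6 were lower, 1 was higher and 1 lay within 1.5-fold in Eomes-overexpressing OT-I cells. Among 9925 expressed genes, 5.19% were lower and 2.46% were higher by the same rule. *Ccr1* counted as expressed through control alone. With an RPKM of at least 1 required in both libraries, 5 receptors were lower and 1 was higher, beside 361 lower and 173 higher genes in the whole series. The number of genes that pass this stricter rule was not counted, so no share is given for it. The median log2 ratio of the 8 receptors was -1.07, against -0.0037 for all expressed genes. A decrease of more than 2-fold was found for 5 receptors, beside 1.76% of expressed genes. *Ccr2* went the other way, with a 4.28-fold higher level, and 0.695% of expressed genes were more than 2-fold higher. In bulk RNA, fewer cells that carry a receptor and less RNA per cell cannot be told apart.

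**Figure D1:**
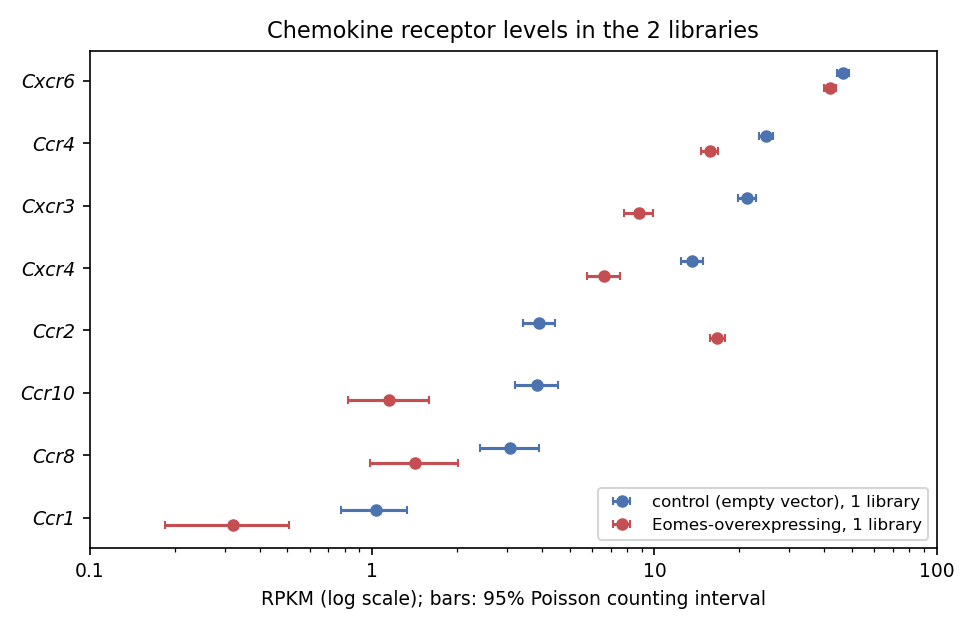
RPKM of the 8 inflammatory chemokine receptors (log axis) in the control library (blue) and the Eomes-overexpressing library (red), with 95% Poisson counting intervals as bars. *Ccr2* is the receptor with the higher red point, at 16.7 against 3.91, and the points of *Cxcr6* lie closest together, at 46.4 and 41.9.

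*Ccr2* encodes the receptor for the monocyte chemoattractant CCL2 and for CCL7 and CCL12, and draws monocytes and activated T cells to inflamed sites. Its RPKM was 3.91 in control against 16.7 in Eomes-overexpressing OT-I cells. About 226 and 953 reads give a log2 ratio of 2.10 with a counting interval of 1.89 to 2.31. It stood at position 22 from the top of the expressed genes ordered by log2 ratio. Among the 3555 expressed genes with a mean RPKM of 5 to 20, 1.55% were more than 1.5-fold higher.

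*Ccr2* lies on the plus strand of chromosome 9 of mm10 (124101950 to 124113557), and its coding sequence of 1119 bases sits in 1 exon. Of the stretches of 50 bases in the transcripts, 3.73% for *Ccr2* and 1.60% for *Ccr4* also occur in other genes, so reads from these stretches could have been divided between genes. None did for *Ccr1*, *Ccr8*, *Ccr10*, *Cxcr3*, *Cxcr4* or *Cxcr6*.

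*Ccr1* encodes a receptor for CCL3 and CCL5 and was the least abundant of the 8. Its RPKM was 1.03 in control against 0.32 in Eomes-overexpressing cells, from about 56 and 17 reads. The log2 ratio was -1.69 (interval -2.57 to -0.89), so that its size is known only roughly, and it was -0.62 with a pseudocount of 1. It was under an RPKM of 1 in Eomes-overexpressing cells, and the other 7 receptors stayed above it in both libraries. Among expressed genes with a mean RPKM under 5, to which *Ccr1*, *Ccr8* and *Ccr10* belong, 13.1% were lower by more than 1.5-fold.

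Both *Ccr1* (123962124 to 123968692, minus strand) and *Cxcr6* (123806475 to 123811760, plus strand) lie in the same cluster of chromosome 9 as *Ccr2*. Counted between starts, *Ccr1* is 133 kb from *Ccr2* and *Cxcr6* is 295 kb from it. The log2 ratios within this cluster ran from -1.69 to 2.10. *Xcr1*, the receptor for XCL1, is 55.6 kb from *Cxcr6* and had an RPKM of 1.79 in control against 1.11 in Eomes-overexpressing cells, giving a log2 ratio of -0.69 (interval -1.08 to -0.31, which spans 1.5-fold). *Fyco1*, which encodes an adaptor of autophagosome transport and overlaps *Cxcr6* on the opposite strand without shared exon bases, was at 1.63 and 1.64. *Ccr3*, *Ccr9* and *Ccr1l1* of the same cluster were under an RPKM of 1 in both libraries.

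**Figure D2:**
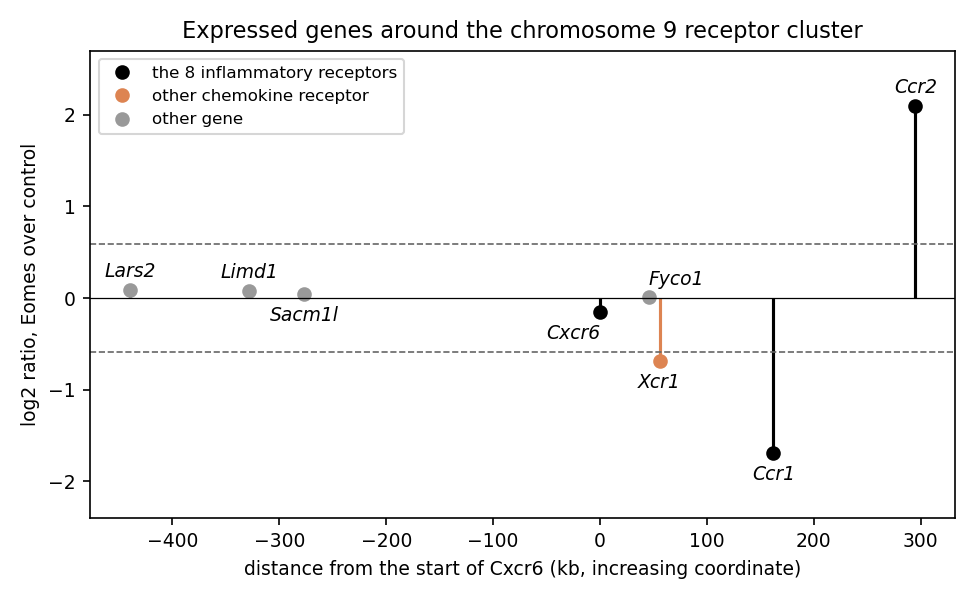
Log2 ratio of Eomes-overexpressing over control for the expressed genes reported here that start within 500 kb of *Cxcr6* on chromosome 9, against their distance in kb from the start of *Cxcr6*. Dashed lines mark 1.5-fold; *Ccr2* (2.10) lies above them, *Xcr1* (-0.69) and *Ccr1* (-1.69) below, and the genes that are no chemokine receptors lie near 0.

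*Cxcr3*, *Cxcr6* and *Cxcr4* are the 3 CXC receptors of the group. *Cxcr3* binds the interferon-induced chemokines CXCL9, CXCL10 and CXCL11 and draws type 1 effector cells into inflamed tissue and tumors. It lies on the X chromosome (101731535 to 101734269, minus strand), and its RPKM was 21.2 in control against 8.83 in Eomes-overexpressing cells. About 710 and 290 reads give an interval of -1.47 to -1.07 around the log2 ratio of -1.27. *Cxcr3* was thus 2.41-fold lower.

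*Cxcr4*, the receptor for CXCL12 that retains cells in bone marrow and niche tissue, lies on chromosome 1 (128588199 to 128592293, minus strand). Its RPKM was 13.6 in control against 6.63 in Eomes-overexpressing OT-I cells. The log2 ratio was -1.03 (interval -1.27 to -0.81 from about 473 and 227 reads). The intervals of *Cxcr3* and *Cxcr4* overlap, so their ratios were not told apart by counting error. Among the expressed genes at a mean RPKM of 5 to 20, 3.54% were lower by more than 1.5-fold.

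*Cxcr6*, the receptor for CXCL16 and a marker of tissue-resident and tumor-infiltrating CD8+ T cells, had the highest RPKM of the 8 in both libraries, 46.4 in control against 41.9 in Eomes-overexpressing cells. It was the receptor within 1.5-fold. Its log2 ratio was -0.15 with an interval of -0.25 to -0.05, so counting error alone does not cover the difference, which is small.

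*Ccr4*, *Ccr8* and *Ccr10* were all lower. *Ccr4*, the receptor for CCL17 and CCL22, lies on chromosome 9 far from the cluster above (114490316 to 114504916, minus strand). Its RPKM was 24.8 in control against 15.7 in Eomes-overexpressing cells. The log2 ratio of -0.66 rests on about 1345 and 835 reads, and its interval of -0.79 to -0.54 spans 1.5-fold. Among expressed genes with a mean RPKM of 20 to 100, 1.45% were lower by more than 1.5-fold.

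*Ccr8*, the receptor for CCL1, is also on chromosome 9 (120092114 to 120094906, plus strand). Its RPKM was 3.07 in control against 1.42 in Eomes-overexpressing cells. Because only about 70 and 32 reads stand behind these values, the interval of the log2 ratio of -1.11 runs from -1.76 to -0.48 and also spans 1.5-fold.

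*Ccr10*, the receptor for CCL27 and CCL28, lies on chromosome 11 (101172997 to 101175443, minus strand). It had the lowest log2 ratio of the 8, -1.74, with an RPKM of 3.83 in control against 1.15 in Eomes-overexpressing cells. The interval was -2.29 to -1.20 from about 128 and 38 reads and overlaps that of *Ccr1*, which was lower than *Ccr10* after centring by GC content (-1.96 against -1.64). The *Ccr10* locus lies inside *Cntnap1* (101170523 to 101190724), a neuronal adhesion gene on the opposite strand, and the 2 genes share no annotated exon base. *Cntnap1* was also lower, with an RPKM of 2.62 in control against 1.31 in Eomes-overexpressing cells. Whether the libraries kept the strand is not given in the sources used here, so reads from unspliced *Cntnap1* RNA over *Ccr10* could not be separated from it.

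The genes around the receptors outside the *Ccr2* cluster were counted next. Within 500 kb, 1 of 9 expressed coding genes was lower at *Ccr4*, 1 of 7 at *Ccr8*, 1 of 33 at *Ccr10*, 0 of 11 at *Cxcr3* and 0 of 5 at *Cxcr4*, and none was higher, beside 5.19% lower and 2.46% higher among all expressed genes. The lower ones were *Bcl2a1c*, a BCL2 family gene, 175 kb from *Ccr4* (log2 ratio -1.01), *Gorasp1*, a Golgi stacking gene, 155 kb from *Ccr8* (-0.86), and *Cntnap1* beside *Ccr10*. *Bcl2a1c* counted as expressed through control alone, with an RPKM of 1.59 against 0.79 in Eomes-overexpressing cells.

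The order of levels differed between the libraries mainly through *Ccr2*. In control the order was *Cxcr6*, *Ccr4*, *Cxcr3*, *Cxcr4*, *Ccr2*, *Ccr10*, *Ccr8* and *Ccr1*. Neighbours in that order differed beyond counting error apart from *Ccr2* over *Ccr10* (ratio 1.02, interval 0.815 to 1.27) and *Ccr10* over *Ccr8* (1.25, 0.923 to 1.69). In Eomes-overexpressing cells *Ccr2* was at place 2, behind *Cxcr6* and level with *Ccr4* (ratio 1.07, interval 0.972 to 1.17). *Ccr8* and *Ccr10* again did not differ beyond counting error (1.23, 0.748 to 2.03).

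*Ccr2* was at 0.184 times the RPKM of *Cxcr3* in control and at 1.89 times in Eomes-overexpressing cells. Against *Ccr1* the ratio went from 3.80 to 52.2. Summed over the 3 CXC receptors, RPKM was 81.2 in control against 57.4 in Eomes-overexpressing cells. Over the 5 CC receptors the sums were 36.7 and 35.3, since the higher *Ccr2* made up for most of the lower *Ccr4*, *Ccr8*, *Ccr10* and *Ccr1*.

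**Figure D3:**
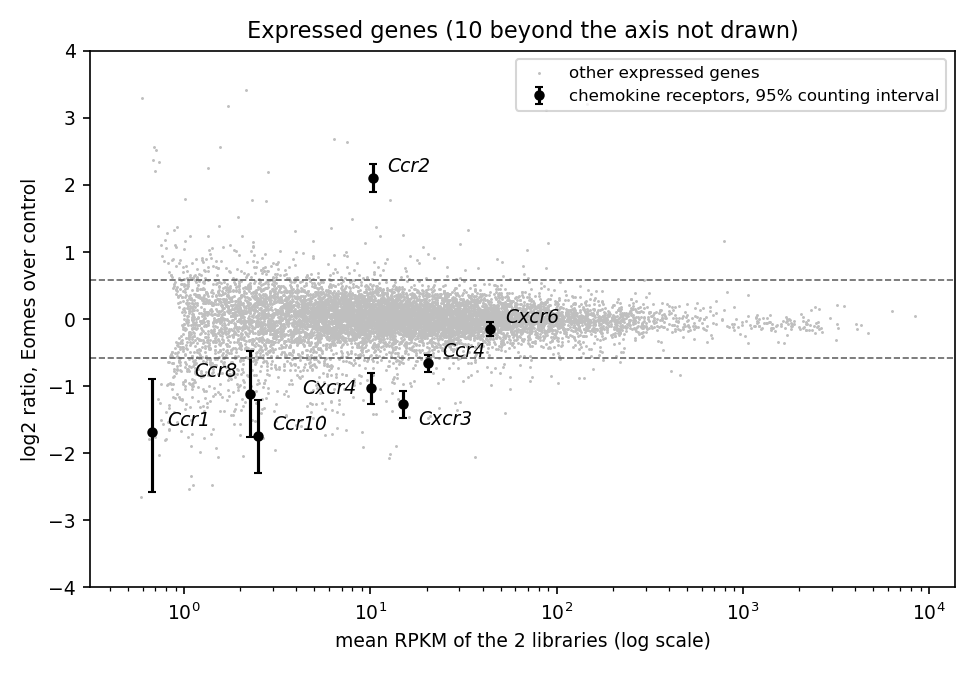
Log2 ratio of Eomes-overexpressing over control against the mean RPKM of both libraries (log axis) for expressed genes (grey) and the 8 receptors (black, 95% counting intervals); dashed lines mark 1.5-fold, and 10 genes beyond a log2 ratio of 4 are not drawn. *Ccr2* at 2.10 lies above most grey points at its level, *Cxcr3* (-1.27) and *Cxcr4* (-1.03) lie below most of them, and *Cxcr6* (-0.15) lies among them.

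T-box factors such as Eomes and T-bet are known to bind letters close to AGGTGTGA. RefSeq promoters of GRCm38.p6, from 250 bases before to 50 after a start, were given for 7 of the 8 receptors, *Ccr10* not among them. None of these 7 windows holds AGGTGTGA or the shorter GGTGTGA on either strand, and 1.28% and 3.98% of all 32851 promoters do. The core GGTGT, which is part of both, was found on either strand in 41.6% of all promoters and in 2 of the 7, those of *Ccr4* and *Cxcr4*, each time as ACACC. No match says only that these letters are not in the window. The 250 bases before the start are shown for these 2 lower receptors, with the core in capitals, and for *Cxcr3* and *Ccr2*, which differed in opposite directions and hold no core. They are chr9:114496545-114496794 (minus strand) for *Ccr4*, chr1:128592300-128592549 (minus strand) for *Cxcr4*, chrX:101734148-101734397 (minus strand) for *Cxcr3* and chr9:124101933-124102182 (plus strand) for *Ccr2*. The RefSeq starts of *Ccr4*, *Ccr2* and *Cxcr3* lie inside the GENCODE loci given above, downstream of the first annotated base of each locus. The bases shown thus lie wholly inside the locus for *Ccr4*, mostly inside it for *Ccr2* and partly inside it for *Cxcr3*.
Ccr4: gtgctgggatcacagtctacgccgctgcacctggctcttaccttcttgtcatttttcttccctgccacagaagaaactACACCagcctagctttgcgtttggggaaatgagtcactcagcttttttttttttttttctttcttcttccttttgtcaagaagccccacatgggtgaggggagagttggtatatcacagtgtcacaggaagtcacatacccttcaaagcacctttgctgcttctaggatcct
Cxcr4: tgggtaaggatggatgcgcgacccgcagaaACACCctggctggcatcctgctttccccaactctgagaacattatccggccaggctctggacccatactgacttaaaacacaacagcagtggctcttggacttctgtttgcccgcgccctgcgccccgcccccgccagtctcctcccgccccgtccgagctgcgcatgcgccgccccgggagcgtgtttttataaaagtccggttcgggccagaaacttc
Cxcr3: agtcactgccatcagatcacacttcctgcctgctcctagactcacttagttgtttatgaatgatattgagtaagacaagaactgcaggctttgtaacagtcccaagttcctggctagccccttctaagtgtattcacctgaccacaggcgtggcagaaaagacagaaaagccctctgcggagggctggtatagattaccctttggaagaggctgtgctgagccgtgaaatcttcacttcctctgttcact
Ccr2: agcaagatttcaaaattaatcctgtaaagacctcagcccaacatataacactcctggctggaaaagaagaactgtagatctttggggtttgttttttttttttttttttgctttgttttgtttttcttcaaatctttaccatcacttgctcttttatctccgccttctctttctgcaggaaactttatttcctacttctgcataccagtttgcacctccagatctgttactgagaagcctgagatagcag

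The core of *Ccr4* begins 172 bases and that of *Cxcr4* 220 bases before the RefSeq start. The *Cxcr4* window, with a GC content of 59.3%, holds 20 CG pairs, against a median of 7 over all promoters. The windows of the other 6 hold 1 to 4 CG pairs.

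Other chemokine receptors were compared next. *Ccr7*, the receptor for the lymph node chemokines CCL19 and CCL21, was lower like *Xcr1*, with a log2 ratio of -1.35 (interval -1.49 to -1.22). *Ccrl2*, a receptor that presents chemerin and does not signal, had a log2 ratio of -0.23 (interval -0.64 to 0.18). *Cxcr2*, known as a neutrophil receptor, was at an RPKM of 2.11 and 2.89, a log2 ratio of 0.45 (interval 0.11 to 0.80), although 6.77% of its 50-base stretches also occur in other transcripts.

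Ligands of the 8 receptors were present for part of the group. Of 19 ligand genes, 5 were expressed, 1 of these was lower and none was higher, and with 5 genes this count cannot be set apart from the 5.19% and 2.46% of all expressed genes. *Ccl3* and *Ccl5*, ligands of *Ccr1*, and the related *Ccl4* were at an RPKM of 751.9, 322.4 and 294.1 in control and 618.9, 342.6 and 270.6 in Eomes-overexpressing cells. *Ccl1*, the ligand of *Ccr8*, was at 43.3 and 30.3, a log2 ratio of -0.52. The lower ligand was *Ccl9*, a CC chemokine that binds *Ccr1*, at 6.82 and 3.56 (log2 ratio -0.94). The ligands of *Ccr4* (*Ccl17*, *Ccl22*) were not listed in either library, and those of *Cxcr3*, *Cxcr4* and *Cxcr6* (*Cxcl9*, *Cxcl10*, *Cxcl11*, *Cxcl12*, *Cxcl16*) were under an RPKM of 1. Of the ligands of *Ccr2*, *Ccl2* was under an RPKM of 1 and *Ccl7* and *Ccl12* were not listed. *Ccl27a* and *Ccl28*, the ligands of *Ccr10*, were also under 1.

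All 25 signalling genes on the list were expressed, from the Gi subunit *Gnai2* to the Rac activator *Dock2* and the actin regulator *Coro1a*, and all 25 lay within 1.5-fold, between -0.20 and 0.56. *Pik3cg*, the catalytic subunit of the PI3-kinase downstream of Gi, was closest to the threshold, with an RPKM of 14.7 in control against 21.7 in Eomes-overexpressing cells, and passed it when each library was scaled to its summed RPKM. The median of the 25 was 0.04, and the shares of all expressed genes past 1.5-fold, 5.19% lower and 2.46% higher, are themselves small beside a list of this size. Of 12 expressed genes that desensitize receptors, such as arrestins, receptor kinases and RGS proteins, 1 was lower. With 12 genes this count cannot be set apart from the 5.19% of all expressed genes. The lower gene was *Arrb1*, which encodes beta-arrestin 1, with an RPKM of 3.51 and 2.08 (log2 ratio -0.75, interval -1.06 to -0.46, which spans 1.5-fold). *Grk2* at -0.18, *Arrb2* at 0.09 and *Rgs1* at 0.08 lay within 1.5-fold.

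**Figure D4:**
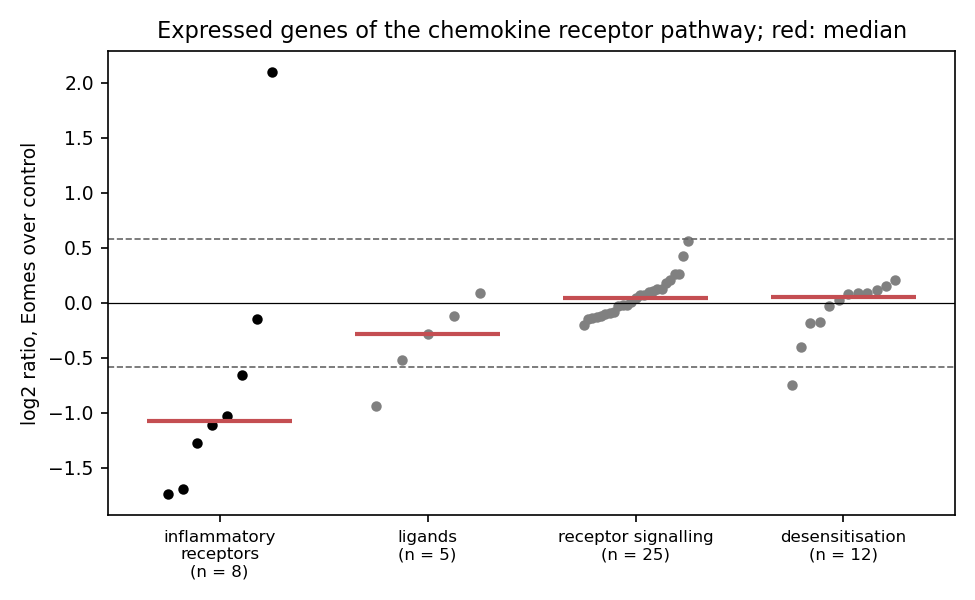
Log2 ratio of Eomes-overexpressing over control for the expressed genes of 4 lists, with the median in red and 1.5-fold as dashed lines. The medians are -1.07 for the 8 receptors, -0.28 for ligands, 0.04 for signalling and 0.06 for desensitisation genes.

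Among 12 transcription factors of effector T cells, *Eomes* was at an RPKM of 2.47 in control against 129.6 in Eomes-overexpressing cells, in the direction that the labels give. *Tbx21*, which encodes T-bet, a known activator of *Cxcr3*, was at 41.0 and 21.6 (log2 ratio -0.92). *Gata3*, the type 2 factor, was at 3.28 and 2.71, a log2 ratio of -0.28 with an interval of -0.58 to 0.03. *Id2* at 1.13 was the other factor that was higher, and *Stat4* at -0.60 the other that was lower, with an interval of -0.74 to -0.47 that spans 1.5-fold. Among all expressed genes, 2.46% were higher and 5.19% lower, and the higher *Eomes* is the gene that the vector encodes. The part of these factors in the receptor levels was not tested.

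The 7 markers of CD8+ T cells were expressed in both libraries, with a summed RPKM of 1520 in control against 1140 in Eomes-overexpressing cells. All 7 log2 ratios were under 0, from -0.88 to -0.14 with a median of -0.43. *Cd8a* (-0.88) and *Cd2* (-0.64) were lower by more than 1.5-fold, beside 5.19% of expressed genes. *Ccr1* and *Ccr2* are also monocyte receptors. Of 7 monocyte or macrophage markers, *Csf1r*, *Adgre1*, *Lyz2* and *Fcgr1* were not listed in either library, and the summed RPKM of the list was 4.08 and 5.87, mostly from *Cd68* and *Cd14*. *Cd68*, a lysosomal marker of macrophages, was higher, at 2.68 and 4.59 (log2 ratio 0.78, interval 0.30 to 1.23, which spans 1.5-fold). *Cd14*, the other expressed marker of this list, went the other way within 1.5-fold, at 1.39 and 1.12 (log2 ratio -0.31, interval -0.99 to 0.37). *Itgam* was under an RPKM of 1, at 0.01 and 0.16. The sums were 2.87 and 1.62 for 4 B cell markers (*Ms4a1* not listed, *Cd79b* lower at 2.79 and 1.56), 2.60 and 1.75 for 5 dendritic cell markers (*Clec9a* not listed) and 0.10 and 0.75 for 5 neutrophil markers (*S100a8* and *S100a9* not listed). Most of the neutrophil sum in Eomes-overexpressing cells was *Ly6g*, at 0.60 from about 11 reads and not listed in control. *Csf3r* was at 0.10 and 0.13. Most of the dendritic cell sum was *Xcr1*, at 1.79 and 1.11, the chemokine receptor described above. *Cd4* and *Foxp3*, markers of T cells other than CD8+ cells, were at or under an RPKM of 0.09. *Klrb1c*, the NK marker NK1.1, was at 0.31 and 5.74 while *Ncr1* was not listed, and the basophil protease *Mcpt8* was at 0.37 and 3.94 while *Fcer1a* was not listed. The sum of the 3 basophil and mast cell markers was 0.37 and 4.01. The part of these cells in the receptor levels was not tested.

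GC content of the transcripts moved with the log2 ratio across genes. The median log2 ratio was 0.15 in the 3279 expressed genes with a GC content of 34.4% to 47.5% and -0.09 in the 3278 with 53.7% to 71.8%. The *Ccr2* and *Ccr1* transcripts, which differed in opposite directions, have a GC content of 38.6% and 39.1%. That of *Ccr10* is the highest of the 8, at 58.0%. After centring by GC content the median over the 8 receptors was -1.08.

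The expressed gene nearest to each of the 7 receptors past 1.5-fold was found by distance between the log2 RPKM values of the 2 libraries, which are only 2 points per gene. *Sytl1* was nearest to *Ccr4* (distance 0.04), *1700007K13Rik* to *Ccr1* (0.06), *Tmem221* to *Ccr8* (0.10), *Slc15a3* to *Ccr10* (0.11), *Gldc* to *Cxcr3* (0.12) and *Crip2* to *Cxcr4* (0.12). The nearest to *Ccr2* was *BC035044*, which was further off at 0.52, with an RPKM of 4.21 in control against 11.8 in Eomes-overexpressing cells.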

How the data were processed

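Total RNA of control and Eomes-overexpressing OT-I cells, 1 library each, was sequenced on an Illumina HiSeq instrument. Reads were filtered with SOAPnuke and mapped to mm10, and expression was computed with RSEM. The submitters' processing notes name HISAT2 and Bowtie2. The authors deposited FPKM values with 2 decimals, called RPKM in their methods and here, with no normalization between libraries stated. Their comparison columns were not used. Symbols turned into dates (20 and 19) were left out, and unlisted genes were set to 0.01. A gene is not reported here and enters only counts over all genes.

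The files give no depth. Low RPKM values of genes with a single annotated transcript are multiples of what 1 read is worth. The depth at which they came out closest to whole numbers was 19300000 reads for control (80.2% of 111 values within 0.25 of a whole number) and 19000000 reads for Eomes. The search was tested on simulated libraries. Approximate reads are RPKM times depth times the length of the shortest GENCODE vM21 transcript linked to a RefSeq mRNA. Intervals are exact binomial (Clopper-Pearson) or Poisson at 95% and cover counting error only.

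The receptors and gene lists were chosen with earlier results of these data known. The naming rule covered members, list genes past 1.5-fold, expressed genes within 500 kb of a member and the gene nearest in pattern. Most neighbours are given as counts, and others named as examples of a list were chosen after their values were seen. Alternatives covered pseudocounts, scaling, GC content in 20 bins, the minimum RPKM and the fold threshold. Python 3.11.15, numpy 2.4.6, pandas 2.3.3, scipy 1.17.1 and matplotlib 3.10.9 were used.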

Additional observations from a re-analysis of the deposited data

How the results depend on the processing

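No receptor changed direction under the 6 alternatives to its log2 ratio, and 43 of 48 values stayed within the counting interval. The others were *Ccr1* (-0.62), *Ccr2* (1.85) and *Ccr10* (-1.17) with a pseudocount of 1, and *Ccr2* (1.82) and *Cxcr6* (-0.33) after centring by GC content. Scaling moved all log2 ratios by at most 0.0319. With a minimum RPKM of 5, 3 receptors were lower, since *Ccr1*, *Ccr8* and *Ccr10* were no longer counted. With a minimum of 1 in both libraries, 5 were lower, since *Ccr1* was no longer counted. Among all genes, 118 were higher and 285 lower with a pseudocount of 1, 1356 and 2088 with no minimum RPKM, 95 and 213 with a minimum of 5, and 69 and 175 past 2-fold, against 244 and 515. The number of genes that reach the minimum of 5 was not counted, so no share is given for that rule. With no minimum RPKM, 1 ligand was higher and 4 were lower, and 1 desensitisation gene was higher. Past 2-fold, 0 ligands were lower, and 0 desensitisation genes were lower past 2-fold, with a pseudocount of 1 and with a minimum of 5. With each library scaled to its summed RPKM, 1 signalling gene was higher. No paired analysis was possible because each group is 1 library. Depth limits *Ccr1*, *Ccr8* and *Ccr10* most, and the spread between cultures is unknown for all 8 receptors. The planned comparison of protein sequences was not run.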

Other observations

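A list of 20 receptors for other attractants and lipids was added once the values of the chemokine receptors were known. Of these, 11 were expressed, with a median log2 ratio of -0.15. A count over 11 genes cannot be set apart from the 5.19% lower and 2.46% higher among all expressed genes. In Eomes-overexpressing OT-I cells, 1 of the 11 was higher and 1 was lower. The lower one was *S1pr1*, the receptor for sphingosine 1-phosphate that lets T cells leave lymphoid organs, with an RPKM of 3.66 in control against 1.60 in Eomes-overexpressing cells (log2 ratio -1.19, counting interval -1.55 to -0.83). The higher one was *P2ry10*, a lysophospholipid receptor, at 7.56 and 11.6 (0.62, interval 0.43 to 0.80, which spans 1.5-fold). *Ptger4*, a receptor for prostaglandin E2, had a log2 ratio of -0.54, and *Gpr183*, the oxysterol receptor that positions lymphocytes, had one of -0.55. *Ltb4r1*, the leukotriene B4 receptor of effector T cells, was at 9.73 and 8.74. *Adora2a* and *Gpr132* lay near 0, at 0.11 and 0.04.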
